A study of Mus musculus with 4 samples.

Results

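The genes of extracellular proteolysis described here are the matrix metalloproteinases (MMPs), their tissue inhibitors (TIMPs), the ADAM and ADAMTS metalloproteinases, the serpins and the plasminogen activation genes Plau, Plaur and Plat, in mouse molar tooth germs cultured with or without TCDD. Members are all probe sets with a single gene symbol that starts with Mmp, Timp, Adam or Adamts and a number, or with Serpin (Serpinh1, a collagen chaperone, left out), or that is Plau, Plaur or Plat. This gave 58 of the 8251 genes that the array's annotation names singly, measured by 73 of its 12488 probe sets. Another 6 probe sets that match the rule carry several symbols, such as those of the near-identical Serpina1 genes, and were left out.

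Mandibular molar tooth regions of NMRI mouse embryos were taken at embryonic day 14 and kept in organ culture for 24 h. The TCDD group received 1 µM TCDD (2,3,7,8-tetrachlorodibenzo-p-dioxin), a ligand of the aryl hydrocarbon receptor, and the control group DMSO at 0.65% of the medium, the solvent in which the TCDD stock was made. Each group has 2 samples, each a pool of about 60 explants from 3 experiments hybridised to 1 murine U74v2A oligonucleotide array, so variation between single embryos was not measured. All media held DMEM with fetal calf serum, and ascorbic acid is listed for DMSO replicate 2 alone. The explants are whole tooth regions, which hold epithelium, mesenchyme and neighbouring tissue, and in such samples fewer cells of a type and less RNA per cell cannot be told apart.

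Growth and folding of a tooth germ need remodelling of its basement membrane and mesenchymal matrix. MMPs are secreted or membrane-bound zinc proteases that cut collagens and other matrix proteins and are held in check by TIMPs. ADAMs shed cell surface proteins, among them growth factor precursors and receptors. Plasminogen activators turn plasminogen into plasmin, and most serpins trap serine proteases in a covalent complex, although some members of the family have other roles.

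Values are MAS5 signals on a linear scale, in which each array is scaled to a target of 100. A difference is TCDD minus DMSO on the scale of log2(signal + 16), where the offset of 16 makes differences of dim probe sets smaller. Tests are those of limma across the 5783 probe sets whose signals averaged 50 or more over the 4 arrays (the filter), with Benjamini-Hochberg adjusted p-values and a threshold of 0.05. Signals of different probe sets are not compared, as each has its own probes.

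No member changed past the test. Of the 73 member probe sets, 20 reached the filter, standing for 19 genes, and 0 of these 20 had a limma adjusted p under 0.05, beside 0.0692% of all probe sets tested. All 20 adjusted p-values were 0.997. At an unadjusted limma p under 0.05 there were also 0 members, beside 2.59% of all probe sets, and the smallest was 0.0591. Differences were positive in 6 of the 20 and negative in 14. The median over the 19 genes was -0.11 and that over all 4595 genes above the filter was 0.02. This median rests in part on single arrays, being -0.06 without DMSO replicate 2 and 0.01 without TCDD replicate 1. The exposure itself was visible in the same arrays: Cyp1a1 (94715_at), a classical target of the aryl hydrocarbon receptor, had signals of 14.7 and 12.7 with DMSO, against 194.8 and 210.5 with TCDD, with a limma adjusted p of 0.000368.

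**Figure D1:**
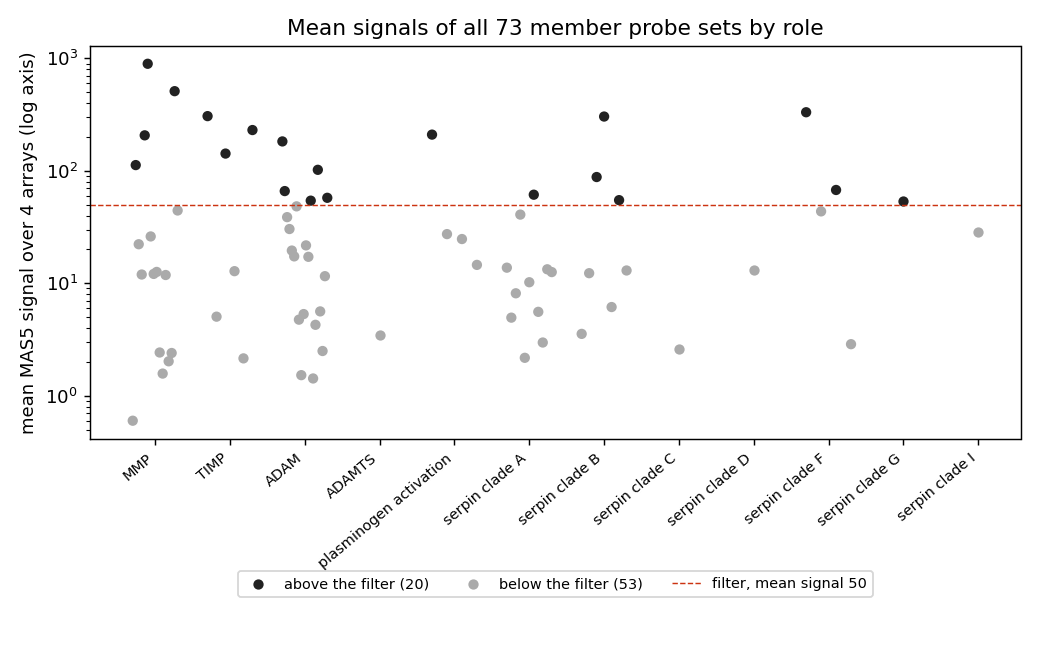
Mean MAS5 signal over the 4 arrays (log axis) of each of the 73 member probe sets, grouped by role on the horizontal axis. Black points are the 20 probe sets above the filter of 50 (dashed line), grey points the 53 below it.

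For 6 of the 20 members the TCDD and DMSO arrays did not overlap, with 2 higher and 4 lower in TCDD. The share over all probe sets tested was 29.8%, with 15.3% higher and 14.6% lower, so the members' count of 6 is near this background. No member reached a ratio of 1.5, on the scale of signal + 16, in 1 direction over all 4 pairs of a TCDD and a DMSO array, beside 0.259% of all probe sets. The 2 higher ones were Serpinb5 and Adam9, and the 4 lower ones Timp1, Timp3, Serpinb9 and the Adam5 probe set 162388_r_at. Leaving out an array makes the condition easier, since 2 pairs remain: the count was 12 of 20 without DMSO replicate 1, 13 of 20 without DMSO replicate 2, 13 of 22 without TCDD replicate 1 and 14 of 20 without TCDD replicate 2. The shares over all probe sets in those fits were 59.5%, 69.6%, 61.8% and 68.2%, so the members' counts stayed near the background there too.

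**Figure D2:**
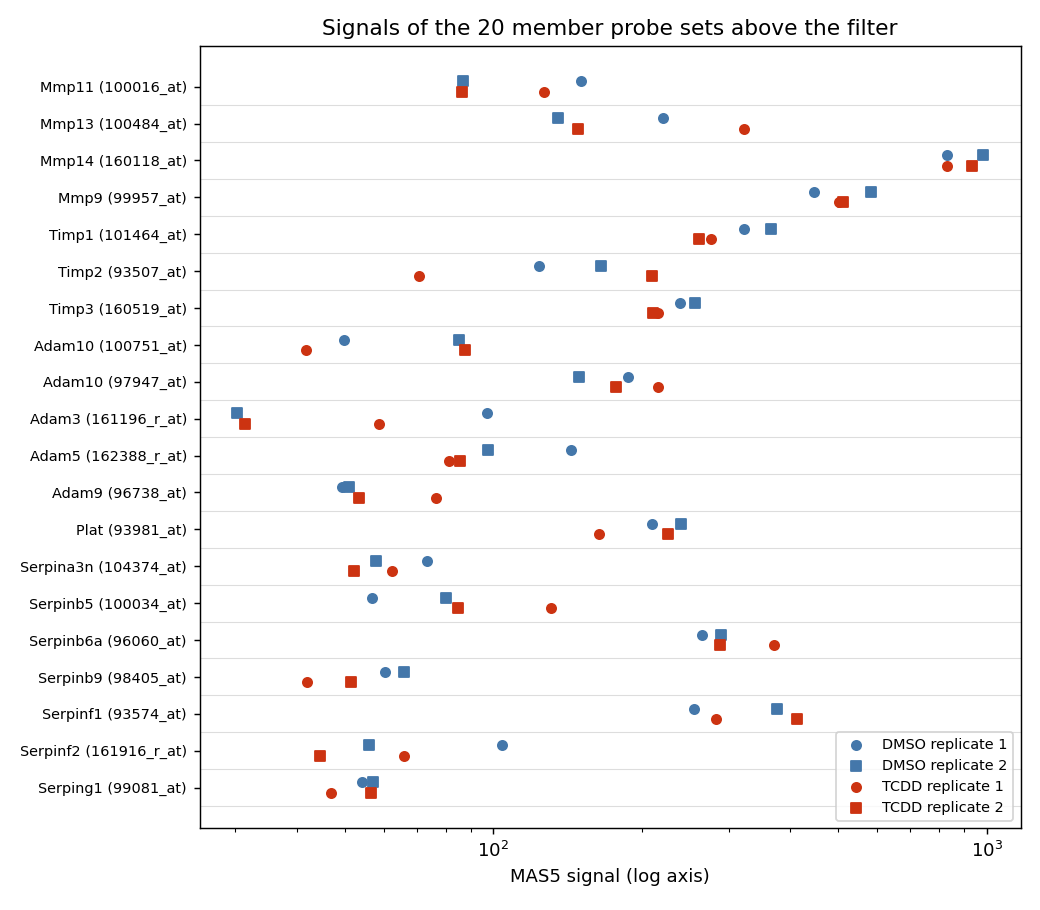
MAS5 signals (log axis) of the 20 member probe sets above the filter, 1 point per array, with DMSO in blue and TCDD in red and replicates 1 and 2 as circles and squares. In 13 of the 20 rows circles and squares lie further apart than the colours do, on the log2(signal + 16) scale, and both TCDD points lie below both DMSO points for Timp1 and Timp3.

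Among the MMPs, Mmp14, the membrane-bound MT1-MMP that activates other MMPs, had signals of 832.4 and 984.3 with DMSO, against 831.3 and 932.4 with TCDD. The groups overlapped, and the difference of -0.04 ± 0.18 (SE) had a limma interval (95%) from -0.43 to 0.35. Mmp9, gelatinase B, which is made by osteoclasts and macrophages among other cells, had signals of 445.8 and 584.3 with DMSO, against 502.0 and 511.5 with TCDD. Both TCDD values lay between the DMSO values, and the difference was -0.01 ± 0.20 (SE), with an interval from -0.44 to 0.42. Its other probe set (162369_f_at), below the filter, gave 46.9 and 40.9 with DMSO, against 47.5 and 42.3 with TCDD. At both Mmp9 probe sets the TCDD arrays therefore showed no shift beyond the spread of the DMSO arrays.

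Mmp13, an interstitial collagenase of bone-forming cells and hypertrophic cartilage, had signals of 221.3 and 135.0 with DMSO, against 322.5 and 148.2 with TCDD. Replicate 1 was the high array in both groups, and the difference of 0.32 ± 0.33 (SE) was smaller than the gap between the replicates. It was -0.21 without TCDD replicate 1 and 0.84 without TCDD replicate 2. Mmp11, stromelysin 3, a protease of remodelling mesenchyme, had signals of 150.6 and 86.6 with DMSO, against 126.6 and 86.3 with TCDD, a difference of -0.11 ± 0.27 (SE). Here too replicate 1 was higher in both groups.

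The other MMP genes on the array stayed below the filter. Mmp2, gelatinase A, a protease of many mesenchymal tissues, had 2 probe sets, with signals of 13.8 and 15.2 with DMSO, against 18.6 and 2.9 with TCDD at 161509_at, and of at most 3.4 on any array at 95663_at. Nothing in the files says whether such signals are above background, so no statement on Mmp2 expression is made. Mmp16, a membrane-bound MMP, had signals of 32.2 and 33.0 with DMSO, against 14.3 and 24.9 with TCDD, without overlap. Mmp3, Mmp7, Mmp8, Mmp10, Mmp12, Mmp17 and Mmp24 had mean signals between 0.6 and 22.25. Mmp20, the enamel protease, has no member probe set and was not analysed here.

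Mmp13 lies in a cluster of MMP genes on chromosome 9. The gene table lists 10 Mmp genes there, 6 of them members, and of these only Mmp13 had a probe set above the filter. The stretches of 100 bases before the annotated start of Mmp13 and of its cluster neighbours Mmp3 (stromelysin 1) and Mmp10 (stromelysin 2) are shown because all 3 hold the motif TGAGTCA, the consensus for AP-1 factors, on 1 of the strands, together with a TATAAA. They are RefSeq sequences of build GRCm38.p6, plus strand, 5′ to 3′, at chr9:7272414-7272513 (Mmp13), chr9:7445722-7445821 (Mmp3) and chr9:7502242-7502341 (Mmp10), and capitals mark both motifs.
Mmp13: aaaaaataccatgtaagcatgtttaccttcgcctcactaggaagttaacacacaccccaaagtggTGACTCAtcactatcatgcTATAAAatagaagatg
Mmp3: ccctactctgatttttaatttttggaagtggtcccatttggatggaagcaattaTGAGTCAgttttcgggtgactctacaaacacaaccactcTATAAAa
Mmp10: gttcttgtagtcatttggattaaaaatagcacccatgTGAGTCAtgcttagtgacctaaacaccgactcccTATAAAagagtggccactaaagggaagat
Promoter entries were found for 39 of the 58 member genes. In windows of 250 bases before the start, TGAGTCA on either strand was present in 9 of 45 member windows (some genes have several starts) and in 4.46% of all 32851 windows, and TATAAA on the gene's strand in 8 of 45 and in 7.59%. Among windows of member genes above the filter, each of the motifs was present in 1 of 14, that of Mmp13. The windows with TGAGTCA belong to Mmp3, Mmp7, Mmp10, Mmp12, Mmp13, Plaur, Adam19, Serpina1b and Serpina1c. The MMPs named here share the chromosome 9 cluster and the Serpina1 genes are near-identical, so the 9 windows are not independent. A match describes these letters only.

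All 3 TIMP genes on the array had a negative difference at their brightest probe set. Timp1, a secreted inhibitor of most MMPs, had signals of 322.9 and 365.2 with DMSO, against 276.7 and 261.1 with TCDD, or 344 ± 29.9 and 269 ± 11.0 (SD, n = 2 each). The groups did not overlap, and the difference of -0.34 ± 0.19 (SE) had an interval from -0.76 to 0.09, with a limma adjusted p of 0.997. Timp3, an inhibitor bound to the matrix that also blocks Adam17, had signals of 239.1 and 256.1 with DMSO, against 216.0 and 210.9 with TCDD. It was lower in both TCDD arrays, with a difference of -0.20 ± 0.19 (SE). Of the 20 members these 2 had the smallest difference by replicate number, with replicate 1 minus replicate 2 at -0.05 for Timp1 and -0.03 for Timp3. With 1 array left out the difference lay between -0.42 and -0.25 for Timp1 and between -0.25 and -0.15 for Timp3. Its sign could not change there, since the groups do not overlap.

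Timp2, which takes part in the activation of pro-Mmp2 by Mmp14, had signals of 124.0 and 165.4 with DMSO, against 70.6 and 209.8 with TCDD at 93507_at. The lowest and the highest value both belonged to TCDD, and the difference of -0.19 ± 0.37 (SE) was 0.50 without TCDD replicate 1 and -0.88 without TCDD replicate 2. Its dim probe set 160116_at had 14.7 and 21.4 with DMSO, against 6.0 and 9.2 with TCDD, all but 1 of these values stored as day serials. That probe set was the only one of the 73 with an unadjusted limma p under 0.05 when the filter was dropped (0.0389), and 0 of the 73 passed the adjusted p there. The other dim TIMP probe sets, 162107_r_at of Timp1 and 161515_i_at of Timp2, had signals of at most 10.6 and 3.3 on any array. Timp4 has no member probe set and was not analysed here.

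The 250 bases before the start of Timp1 and Timp3 are shown because both were lower in TCDD without overlap, and those of Serpinb5 because it had the largest positive difference of the 20. Capitals mark GCGTG, the core of the element bound by the aryl hydrocarbon receptor and its partner. The sequences are RefSeq, build GRCm38.p6, plus strand, at chrX:20869916-20870165 (Timp1), chr10:86300162-86300411 (Timp3) and chr1:106860925-106861174 (Serpinb5).
Timp1: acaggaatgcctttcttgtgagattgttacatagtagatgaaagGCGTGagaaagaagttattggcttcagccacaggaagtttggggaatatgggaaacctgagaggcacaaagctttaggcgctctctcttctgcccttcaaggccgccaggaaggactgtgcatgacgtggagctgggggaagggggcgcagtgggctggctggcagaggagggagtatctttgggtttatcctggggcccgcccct
Timp3: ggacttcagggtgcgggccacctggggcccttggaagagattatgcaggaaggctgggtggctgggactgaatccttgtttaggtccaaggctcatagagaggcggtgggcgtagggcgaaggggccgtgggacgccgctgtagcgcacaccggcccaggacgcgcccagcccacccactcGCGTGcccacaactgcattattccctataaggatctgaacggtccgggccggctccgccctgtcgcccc
Serpinb5: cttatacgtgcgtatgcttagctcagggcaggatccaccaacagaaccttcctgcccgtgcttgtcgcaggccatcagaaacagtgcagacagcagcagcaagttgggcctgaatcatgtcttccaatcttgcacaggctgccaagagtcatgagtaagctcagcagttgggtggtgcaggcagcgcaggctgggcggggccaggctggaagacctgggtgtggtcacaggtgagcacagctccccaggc
GCGTG on either strand was present once in the Timp1 window, once in the Timp3 window and not in that of Serpinb5. It was present in 15 of 45 member windows and in 28.2% of all windows, so a match is common.

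Among the ADAMs, Adam10, a sheddase that cuts Notch receptors and cadherins, was measured by 2 probe sets above the filter that differed in sign. At 97947_at signals were 187.5 and 149.5 with DMSO, against 215.9 and 177.4 with TCDD, a difference of 0.21 ± 0.21 (SE). At 100751_at they were 49.9 and 85.0 with DMSO, against 41.8 and 87.6 with TCDD, a difference of -0.08 ± 0.32 (SE). The probe sets also disagreed on the replicates, as replicate 1 was the higher at the first and the lower at the second. Adam9, a sheddase of epithelia and mesenchyme, had signals of 49.3 and 50.9 with DMSO, against 76.6 and 53.5 with TCDD. Both TCDD arrays were higher, replicate 2 by little, and the difference was 0.28 ± 0.24 (SE).

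Adam3 and Adam5, genes known for their expression in male germ cells, passed the filter at 1 probe set each. Both are of the _r_at type, in which Affymetrix relaxed its rules for choosing probes. Adam5 (162388_r_at) had signals of 143.9 and 97.4 with DMSO, against 81.5 and 85.6 with TCDD, a difference of -0.44 ± 0.23 (SE) and the lowest of the 20. At its other probe set (99474_at) signals were 6.7 and 4.7 with DMSO, against 4.5 and 6.6 with TCDD. Adam3 (161196_r_at) had 97.0 and 30.2 with DMSO, against 58.6 and 31.4 with TCDD, while its other probe set (100526_f_at) was at most 3.0 on any array. Without the _r_at probe sets 17 members remained above the filter, and the median over member genes was -0.06.

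Adam17, the sheddase of tumour necrosis factor and of EGF receptor ligands, was below the filter, with signals of 16.9 and 25.0 with DMSO, against 13.1 and 14.4 with TCDD. Both TCDD values were the lower ones, in a range where 3 of the 4 cells were stored as day serials. Adam19, a protease needed for heart development, had 40.3 and 50.5 with DMSO, against 41.9 and 60.6 with TCDD, just under the filter. The other ADAM genes below it were Adam2, Adam4, Adam7, Adam8, Adam11, Adam12, Adam15, Adam22, Adam23 and Adam28, with mean signals of at most 38.75. The only ADAMTS member was Adamts1, an aggrecan- and versican-cutting protease, at a probe set of the _r_at type. Its signals were 4.5 and 2.4 with DMSO, against 3.8 and 3.3 with TCDD.

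In plasminogen activation, Plat, the tissue-type activator, had signals of 209.3 and 240.6 with DMSO, against 164.1 and 225.8 with TCDD. The groups overlapped, and the difference was -0.20 ± 0.22 (SE), with an interval from -0.68 to 0.28. Plau, the urokinase-type activator, was below the filter, with 35.7 and 24.3 with DMSO, against 29.0 and 20.5 with TCDD. Plaur, the receptor that holds urokinase at the cell surface, had 7.2 and 26.5 with DMSO, against 35.1 and 30.2 with TCDD. Both TCDD values of Plaur were higher, and its difference of 0.63 was the largest positive one over all 73 probe sets. However, replicates 1 and 2 gave 1.14 and 0.12, both DMSO values were stored as day serials, and Plaur was not in the fit with the filter. Serpinb2, an inhibitor of both activators that is known as a TCDD-inducible gene in other cells, had 19.4 and 11.5 with DMSO, against 13.8 and 13.6 with TCDD. Its TCDD values lay between its DMSO values.

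Serpinb5, also called maspin, a serpin of epithelial cells that does not act as a protease inhibitor, had the largest difference above the filter. Its signals were 56.8 and 80.1 with DMSO, against 130.6 and 84.8 with TCDD, or 68.5 ± 16.5 and 108 ± 32.4 (SD, n = 2 each). The groups did not overlap, but the higher DMSO array and the lower TCDD array lay close together. The difference of 0.54 ± 0.26 (SE) had an interval from -0.02 to 1.10 and a limma adjusted p of 0.997. It was 0.27 without TCDD replicate 1 and 0.81 without TCDD replicate 2. The summed signal of 9 epithelial marker genes was 2904 and 3925 with DMSO, against 3959 and 4408 with TCDD. This sum rests mostly on Krt17 and Dsp, with mean signals of 1513 and 1307. A positive difference was found in 4 of the 6 above the filter and a negative one in Cdh1 and Shh. An unadjusted limma p under 0.05 was found for 1 of these 6, Perp, beside 2.59% of all probe sets tested. Perp had 393.2 and 592.1 with DMSO, against 756.8 and 738.0 with TCDD, with a limma adjusted p of 0.997. Cdh1 had 170.3 and 141.1 with DMSO, against 101.2 and 120.5 with TCDD. The sum of 10 dental mesenchyme genes was also higher in both TCDD arrays, at 4132 and 4665 with DMSO, against 4677 and 4989 with TCDD. Its largest part was Col1a1, with 1961 and 1956 with DMSO, against 2400 and 2277 with TCDD. A positive difference was found in 6 of the 8 above the filter and a negative one in 2. The basal keratins Krt5, Krt14 and Krt15 in the epithelial list had mean signals of only 9.18, 8.33 and 0.825. The part of these markers in the Serpinb5 difference was not tested.

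Among other clade B serpins, which act inside cells, Serpinb6a had signals of 265.5 and 290.0 with DMSO, against 371.4 and 288.5 with TCDD. Only TCDD replicate 1 stood apart, and the difference was 0.23 ± 0.20 (SE). Serpinb9, an inhibitor of granzyme B, had 60.2 and 65.8 with DMSO, against 42.0 and 51.5 with TCDD. It was lower in both TCDD arrays, with a difference of -0.34 ± 0.23 (SE) and an interval from -0.85 to 0.18. In Serpinb9 and in Adam3 the TCDD mean was under 50, so these probe sets passed the filter through their DMSO arrays. Serpinb1a, Serpinb3a, Serpinb6c and Serpinb9e had mean signals of at most 13.

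Among secreted serpins, Serpinf1, pigment epithelium-derived factor, which inhibits blood vessel growth, had signals of 255.5 and 375.3 with DMSO, against 283.1 and 413.5 with TCDD at 93574_at. Replicate 2 was higher in both groups, and the difference of 0.14 ± 0.25 (SE) was smaller than that gap. Its other probe set (162429_r_at), with a mean of 43.6, had 91.8 in DMSO replicate 1 and at most 31.7 on the other arrays, and so its difference of -0.78 rests on that 1 array. Serpinf2, the plasmin inhibitor alpha 2-antiplasmin, had 104.0 and 55.9 with DMSO, against 65.8 and 44.6 with TCDD at 161916_r_at, a difference of -0.40 ± 0.29 (SE), and at most 5.1 on any array at 101928_at. Serping1, the inhibitor of complement C1, had 54.1 and 56.9 with DMSO, against 46.8 and 56.5 with TCDD, a difference of -0.08 ± 0.23 (SE).

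Serpina3n, an inhibitor of chymotrypsin-like proteases, had signals of 73.3 and 57.7 with DMSO, against 62.2 and 52.2 with TCDD, a difference of -0.15 ± 0.23 (SE). The other 7 clade A genes (Serpina1b, Serpina1c, Serpina1e, Serpina5, Serpina6, Serpina10 and Serpina12), most of them known from liver and plasma, had mean signals of at most 40.8. Several of their probe sets are of the _f_at type, which can bind transcripts of a whole gene family, so values for single Serpina1 genes are uncertain. Serpinc1 (antithrombin), Serpind1 (heparin cofactor II) and Serpini1 (neuroserpin) had mean signals of 2.63, 13.1 and 28.8. Serpini1 had 44.5 and 28.0 with DMSO, against 23.8 and 19.0 with TCDD, without overlap.

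Over the 53 member probe sets below the filter, 38 had a mean signal under 16. The groups did not overlap in 16 of them, 3 higher and 13 lower in TCDD. Over all probe sets below the filter the shares were 6.88% higher and 26.2% lower, so an excess of lower values is common to dim probe sets on these arrays. No probe set of the 53 reached a ratio of 1.5 in all 4 array pairs.

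**Figure D3:**
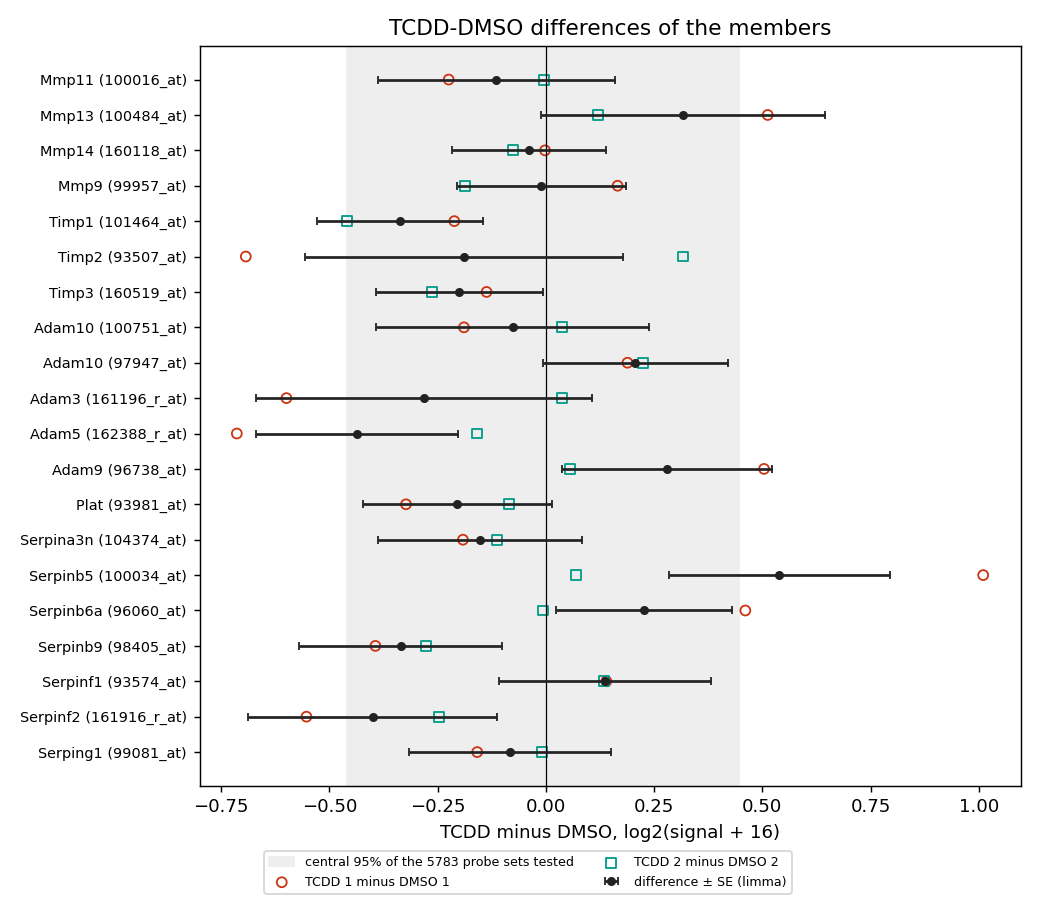
TCDD minus DMSO on the log2(signal + 16) scale for the 20 member probe sets above the filter: black points with bars are the difference ± SE, open circles and squares the differences of the replicate 1 and replicate 2 arrays, and the grey band holds the central 95% of all 5783 probe sets, from -0.46 to 0.45. Serpinb5 alone lies outside the band, and its circle and square are far apart.

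Replicate 1 and replicate 2 arrays did not overlap in 13 of the 20 members, 6 higher and 7 lower in replicate 1, beside 44.4% of all probe sets tested (20.9% higher and 23.5% lower). In 13 of the 20 the difference by replicate number was larger in size than that by treatment, and the median sizes over the 20 were 0.228 and 0.205. Over all probe sets tested the first was the larger in 56.3%, with median sizes of 0.178 and 0.147. The largest were those of Adam3 (161196_r_at) at 0.97, Timp2 at -0.88, Mmp13 at 0.85, Adam10 (100751_at) at -0.73, Mmp11 and Serpinf2 at 0.59 each, and Serpinf1 at -0.52, as replicate 1 minus replicate 2. The replicates were separate pools, and the labelled amount of total RNA also differed, with 11 µg for replicate 1 of both groups and 7 and 8 µg for DMSO and TCDD replicate 2.

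Markers of other tissues in the explants differed by replicate number as well. Ibsp, bone sialoprotein, a marker of bone-forming cells, had signals of 1029 and 1054 in replicate 1 of DMSO and TCDD and of 479.6 and 446.7 in replicate 2, high and low in the same arrays as Mmp13. The osteoclast genes Acp5 and Ctsk, the only others of 7 bone and osteoclast markers with a probe set, showed a smaller gap: together they summed to 365.9 and 446.9 in replicate 1 of DMSO and TCDD and to 350.9 and 322.4 in replicate 2. The summed signal of 10 skeletal muscle genes was 998 and 1316 in replicate 1 and 448 and 486 in replicate 2 of DMSO and TCDD. The part of bone or muscle tissue in the values of Mmp13 and Mmp11 was not tested. Macrophage genes had summed signals of 879 and 812 with DMSO, against 1032 and 1055 with TCDD over 12 genes, with Fcer1g at a mean under 5. Differences were positive in 8 of the 9 above the filter. An unadjusted limma p under 0.05 was found for 3, beside 2.59% of all probe sets tested, and an adjusted one for 0. Plaur, below the filter, was also higher in both TCDD arrays, at 7.2 and 26.5 with DMSO, against 35.1 and 30.2 with TCDD. Within each group the order of the replicates differed between Plaur and the macrophage sum. The part of macrophages in the values of Plaur was not tested. Endothelial genes summed to 734 and 688 with DMSO, against 685 and 670 with TCDD over 8 genes. None of 5 cartilage, 7 neutrophil and mast cell or 5 liver and plasma protein genes reached the filter, and 8 of 10 genes of the dental mesenchyme did.

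**Figure D4:**
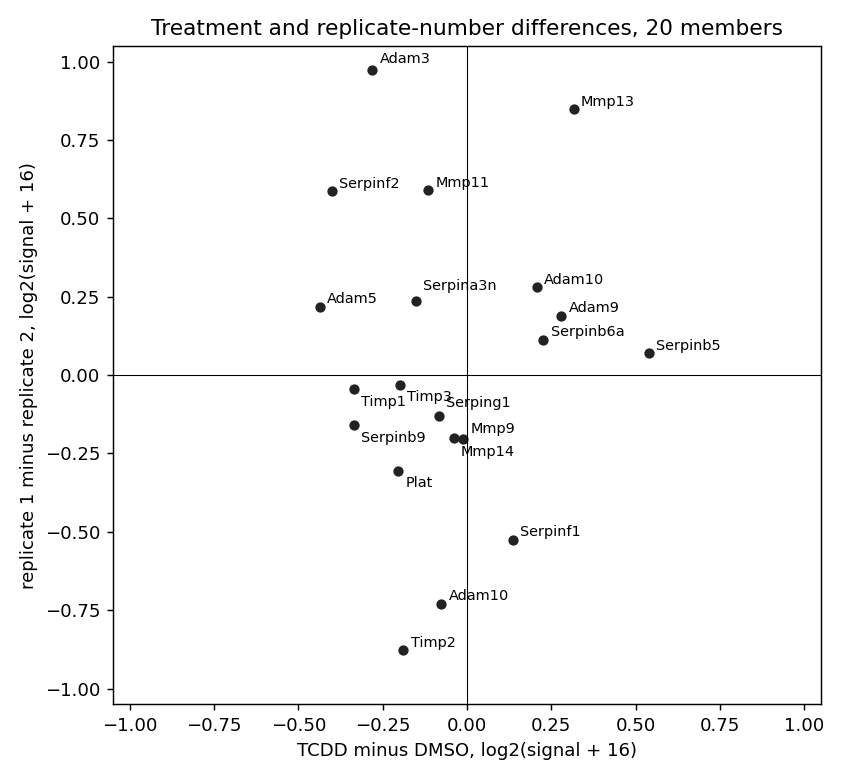
Difference by treatment (TCDD minus DMSO, horizontal) against difference by replicate number (replicate 1 minus replicate 2, vertical) for the 20 member probe sets above the filter, both on the log2(signal + 16) scale with the same range. The points spread more widely in the vertical direction, from -0.88 (Timp2) to 0.97 (Adam3), than in the horizontal one, from -0.44 (Adam5) to 0.54 (Serpinb5).

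Other genes of pericellular proteolysis, from a list of 32 with 30 on the array and 20 above the filter, were set beside the members. Differences were positive in 9 and negative in 11, and the median was -0.02, or between 0.02 and 0.04 with any 1 array left out. Of the 20, 0 passed the limma adjusted p, and 1 had an unadjusted limma p under 0.05, beside 2.59% of all probe sets tested. That gene was Ctss, a lysosomal cysteine protease of macrophages and also a macrophage marker above, with 82.4 and 63.7 with DMSO, against 129.3 and 105.2 with TCDD. Reck, a membrane-anchored inhibitor of MMPs, had 398.1 and 270.1 with DMSO, against 218.6 and 250.1 with TCDD. It was lower in both TCDD arrays, as were 14.6% of all probe sets tested. Its difference was -0.46 ± 0.22 (SE), with a limma adjusted p of 0.997. Pcsk6, a proprotein convertase, had 98.6 and 86.3 with DMSO, against 116.5 and 153.4 with TCDD, a difference of 0.47 ± 0.22 (SE). F2r, the thrombin receptor, had 673.0 and 951.7 with DMSO, against 954.7 and 1033 with TCDD, a difference of 0.31. Cpe, a carboxypeptidase of neuropeptide processing, had 606.0 and 486.3 with DMSO, against 813.8 and 554.8 with TCDD, a difference of 0.30. Mme, neprilysin, had 73.2 and 99.7 with DMSO, against 44.6 and 87.5 with TCDD, a difference of -0.36.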

How the data were processed

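RNA of 4 pools was measured on murine U74v2A arrays. The deposited values are MAS5 signals (hybridisation intensity, linear), which the authors made with Affymetrix Microarray Suite 5.0 and scaled to a target of 100, per the labels. Detection calls and probe-level files were not used here. Of 49952 cells, 18515 (37.1%) hold the serial number of a day in place of a signal such as 12.3. These were turned back into day and month. Trimming 2% at either end then gave a mean of 100.05 on every array, near the stated target. Of the 292 member cells, 153 were of this kind, in 50 of 73 probe sets and in none of the 20 above the filter.

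Gene names came from the platform's annotation table, and symbols were checked through Entrez IDs in the GRCm38.p6 gene table. The build of the authors' annotation is not given in the sources used here.

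The fit used limma 3.58.1 in R 4.3.3 (lmFit, eBayes with a variance trend) on log2(signal + 16), over probe sets with a mean of at least 50. It was tested on simulated data with independent arrays and planted differences larger than that of any member. That test does not bear on differences of the members' size. The SDs give the spread between the 2 pools of a group. The SEs, intervals and p-values of limma also draw on the variances of the other probe sets, which supply 8.8 of 10.8 degrees of freedom. No exact permutation test was run, since with 2 arrays in each group its smallest two-sided p is 0.33.

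Members and lists were chosen with earlier results of these data known. By rule, values in every array are given for 18 genes of known roles where they are on the array, for each other gene above the filter, and for up to 6 listed genes of pericellular proteolysis. Mmp16, Adam19 and Serpini1 were added after their values were seen.

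Alternatives were other offsets (1 and 64), filters (none and 100), quantile normalization, day serials set to 16, no variance trend, probe sets of a gene averaged, a replicate block and leaving out each array. Leaving out _r_at probe sets was chosen after seeing the data.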

Additional observations from a re-analysis of the deposited data

How the results depend on the processing

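No member passed the limma adjusted p under any of the alternatives run, and the lowest adjusted p of a member above the filter was 0.282. Over all probe sets the count of calls was 4. It was 2 without the filter, and lay between 2 and 5 with 1 array left out. With the replicate block it was 32, of which 0 were members. The labels do not state that the numbers mark pairs. The deviations of same-numbered arrays correlated at 0.38 over the 5783 probe sets and at 0.65 over the 20 members, with only 2 pairs. The count of members whose groups do not overlap, 6 of 20, was 22 of 73 without the filter and 3 of 12 with a minimum of 100, beside 31.6% and 29.5% of all probe sets. It lay between 12 and 14 of 20 to 22 with 1 array left out, where fewer pairs have to agree, beside 59.5% to 69.6% of all probe sets. The median difference of member genes, -0.11, was -0.06 without _r_at probe sets and between -0.12 and 0.01 with 1 array left out. Its spread between replicates was 0.04.

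Only the other offsets, quantile normalization and leaving out an array could change the sign of a member's difference. The filters, variance trend, replicate block, day serials and removal of _r_at probe sets could not, since they leave the group means of these 20 unchanged. Under the alternatives that could, the sign was the same for 10 of the 20 members wherever they were kept in the fit. Among these are the 6 members whose groups do not overlap. For those 6 neither another offset nor leaving out an array could change the sign, so its constancy there carries no information. The sign of the other 10 of the 20 changed with 1 array left out, and not with the other offsets or quantile normalization. Their ranges were -0.50 to 0.34 for Adam10 (100751_at), -0.93 to 0.05 for Adam3, -0.46 to 0.24 for Mmp11, -0.21 to 0.84 for Mmp13, -0.16 to 0.08 for Mmp14, -0.20 to 0.18 for Mmp9, -0.42 to 0.01 for Plat, -0.13 to 0.40 for Serpinf1, -0.19 to 0.02 for Serping1 and -0.88 to 0.50 for Timp2. The cause was not tested. With 1 array left out, the lone array is assumed to vary like the others.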
